A study of Homo sapiens with 6 samples.

Results

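The matrix metalloproteinase (MMP), ADAMTS and TIMP genes were followed across 6 RNA-seq libraries of KGN, a cell line from a human ovarian granulosa cell tumour. Members were all protein-coding genes whose GENCODE symbol is MMP with a number (an A or B may follow), ADAMTS with a number, or TIMP1 to TIMP4. The rule found 46 genes among 58336 in the tables: 23 MMP, 19 ADAMTS and 4 TIMP genes. The rule used no measured value, but the families were chosen with earlier results of these data known.

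The libraries fall into 2 genotypes of FOXL2, a forkhead transcription factor of granulosa cells. For 3 libraries (clones 44a and 4.72, and one titled 4.72-44a) the genotype is WT/WT, made from the mutant line by CRISPR/Cas9 reversion of C134W. The other 3, labelled FOXL2 WT/C134W (clones 3.11 and 44b, and 3.11-44b), carry the mutation, and their labels record no editing. RNA was collected at 30 h from a transfection whose content is not stated. The remaining title in either genotype strings both clone names together and may stand for a mix, so the genotypes were compared in the 4 single-clone libraries, 2 against 2, and the joined libraries are given beside them. Genotype and editing history cannot be told apart, and p-values measure the spread between these 4 samples, each 1 clone.

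MMPs are zinc-dependent proteases that cut collagens, other matrix proteins and cell surface proteins. They are made as inactive precursors, and most are secreted, while the membrane-type members stay at the cell surface. ADAMTS proteases are secreted and carry thrombospondin repeats; some trim procollagens and others cut proteoglycans such as versican and aggrecan. TIMPs are small secreted proteins that bind and block the active site of these enzymes, and TIMP2 also helps MMP14 to activate the precursor of MMP2. In the ovary, proteases of these families are known for remodelling the follicle wall and the cumulus matrix around ovulation, ADAMTS1 among them.

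The coding sequence of the zinc-binding site shows what the proteases share and where the families part. In GENCODE 29 transcripts (GRCh38) a 36-base stretch that holds 3 histidine codons (in capitals below) was found in 23 of 23 MMP genes, 18 of 19 ADAMTS genes and 0 of 4 TIMP genes. The search pattern also required a glutamate codon after the first histidine codon and a glycine or asparagine codon as the eighth. ADAMTS8 was the gene not matched by the pattern, and at which codon it failed was not tested. These 8 members are shown because their expression is described in full below; positions run from the first to the last base of the stretch.
MMP14 (chr14:22843283-22843318, plus strand): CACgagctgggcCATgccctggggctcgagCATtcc
MMP2 (chr16:55491827-55491862, plus strand): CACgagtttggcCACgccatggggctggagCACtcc
MMP11 (chr22:23780885-23780920, plus strand): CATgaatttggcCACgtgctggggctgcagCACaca
MMP19 (chr12:55839593-55839628, minus strand): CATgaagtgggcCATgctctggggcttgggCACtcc
ADAMTS2 (chr5:179154174-179154830, minus strand): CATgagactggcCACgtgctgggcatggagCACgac
ADAMTS12 (chr5:33649679-33658200, minus strand): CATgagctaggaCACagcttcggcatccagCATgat
ADAMTS1 (chr21:26841140-26841867, minus strand): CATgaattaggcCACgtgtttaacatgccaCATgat
ADAMTS15 (chr11:130461612-130462112, plus strand): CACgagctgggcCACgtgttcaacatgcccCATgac
The codon after the last histidine was a serine codon in 20 of 23 MMP genes and an aspartate codon, GAC or GAT, in 18 of 18 matched ADAMTS genes. Of the 2 kinds of eighth codon that the pattern allowed, glycine (GGN) was found in all 23 MMP genes and in 14 ADAMTS genes. AAC was found in ADAMTS1, ADAMTS4, ADAMTS9 and ADAMTS15, 4 of the 7 genes of the proteoglycan-cleaving group. In the same group ADAMTS5 and ADAMTS20 had a glycine codon, and ADAMTS8 was not matched. The stretch lay within 1 exon in 23 of 23 MMP genes and ran across an exon junction in 18 of 18 ADAMTS genes, so the ADAMTS intervals above include an intron.

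Depth ran from 35332727 to 46613068 summed expected counts per library, where 3 counts equal 0.0663 to 0.0781 CPM (counts scaled to a common library size). Of the granulosa cell markers, 4 of 14 (FSHR, AMHR2, GATA4 and WT1) had 0 counts in all 6 libraries, while NR5A1 ran from 33.9 to 50.5 CPM and AMH from 18.2 to 36.6 CPM. FOXL2 itself had 7.38 and 4.87 CPM in 44a and 4.72 and 4.34 CPM in 4.72-44a. It had 9.26 and 10.1 CPM in 3.11 and 44b and 6.32 CPM in 3.11-44b, which lay below 44a. Among leukocyte markers CD3E, ITGAM and LYZ were at 0 counts in every library, while CD68 had 63.6 to 74.3 CPM, CSF1R 15.5 to 26.2 CPM and PTPRC 0.494 to 2.94 CPM.

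A few members supplied nearly all family transcripts. Levels between genes are given in TPM, in which reads are divided by gene length before scaling to a common total. MMP2, gelatinase A, was the most abundant member, with 1836, 1827 and 1759 TPM in 44a, 4.72 and 4.72-44a and 1607, 1559 and 1483 TPM in 3.11, 44b and 3.11-44b. It made up 84.1% to 89.7% of the summed MMP TPM, and MMP2 with MMP14 made up 97.3% to 98.4% in every library. TIMP1 (mean of 972 TPM over the 6 libraries) and TIMP2 (501 TPM) followed. MMP14 had a mean of 228 TPM, ADAMTS2 76.9 TPM, ADAMTS1 59.2 TPM and ADAMTS10 34.3 TPM. In all, 11 of 46 members had a mean of at least 10 TPM and 20 had at least 1 TPM.

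**Figure D1:**
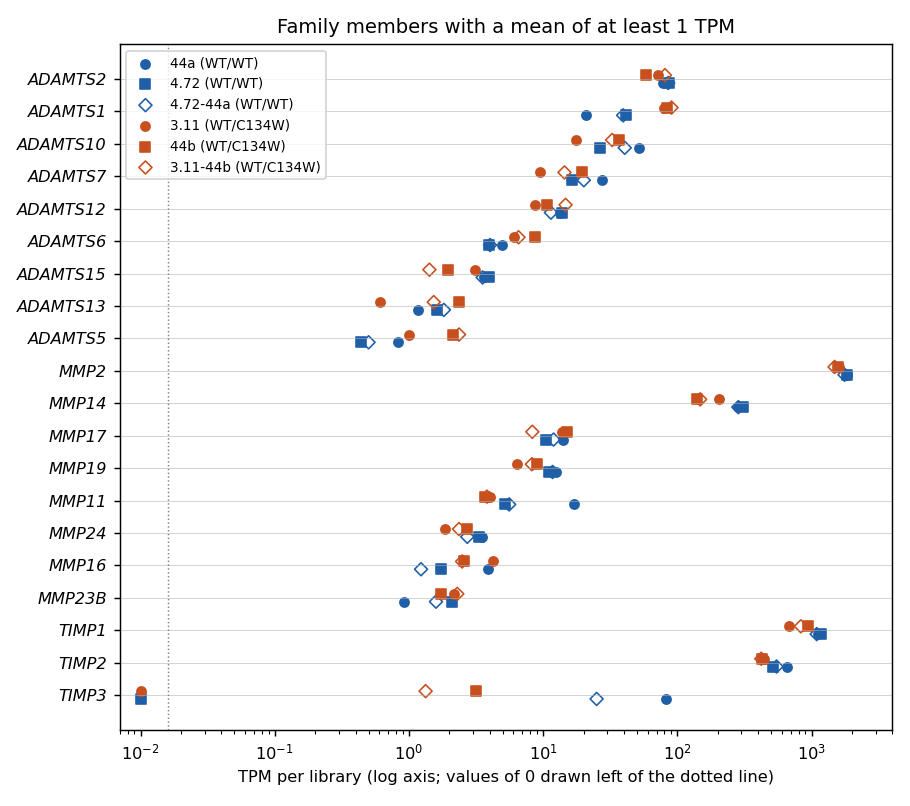
TPM of the 20 members with a mean of at least 1 TPM, 1 point per library on a log axis; filled points are single clones, open diamonds the joined libraries, blue WT/WT and orange WT/C134W. MMP2, TIMP1, TIMP2 and MMP14 lie furthest right, and TIMP3 runs from 0 in 4.72 and 3.11 to 81.6 TPM in 44a.

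Many classical secreted MMPs were at or near 0. Of the 46 members, 10 had no count in any library: MMP8 and MMP13 (collagenases), MMP9 (gelatinase B), MMP26, MMP27, ADAMTS16, ADAMTS18, ADAMTS19, ADAMTS20 and TIMP4. At these depths a count of 0 allows up to 0.0781 CPM in the shallowest library. A further 9 members had a few counts in some libraries, at most 0.494 CPM, and did not pass the low-count filter (ADAMTS4, ADAMTS9, ADAMTS17, MMP7, MMP10, MMP12, MMP20, MMP21 and MMP28). The MMP cluster on chromosome 11 (chr11:102520508-102955734) holds 9 of the genes, MMP1 and MMP3 among them, and together these had 29, 21 and 10 expected counts in 44a, 4.72 and 4.72-44a and 19, 60 and 36 in 3.11, 44b and 3.11-44b. No gene of that cluster exceeded 0.654 CPM in any library.

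The genotype comparison asked which genes differ between clones with and without the C134W protein. Members were read from edgeR's quasi-likelihood test over 16416 genes, which called 0 genes (0%) at the 0.05 level after Benjamini-Hochberg adjustment, while 1243 genes (7.57%) had an unadjusted p under 0.05. Of 27 members that passed the filter, 0 were called and 9 had an unadjusted p under 0.05 (8 with lower and 1 with higher values in WT/C134W). Lower values at that unadjusted level were found for 4.7% of all genes and higher values for 2.88%. Of the tested members 19 had a negative log2 fold change (mutant over reverted clones) against 49.4% of all genes, and the median was -0.51 against 0.01 for all genes. Without 44a 2 members had an unadjusted p under 0.05, without 3.11 5, and 7 without 44b. The 27 are the members with enough counts in at least 2 of the 4 clones, so a member high in 1 genotype alone could enter. DESeq2 called 283 genes (1.72%), MMP14 and ADAMTS1 among them. When genes of low count were kept, edgeR called 664 genes (2.73%), 6 of them members, and on log2(TPM + 0.1) limma called 2 genes (0.0143%) and 0 members. By contrast, limma voom called 0 with 9 members at an unadjusted p under 0.05. Outside edgeR's test on the 4 clones, the share of all genes at that unadjusted level was not computed.

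**Figure D2:**
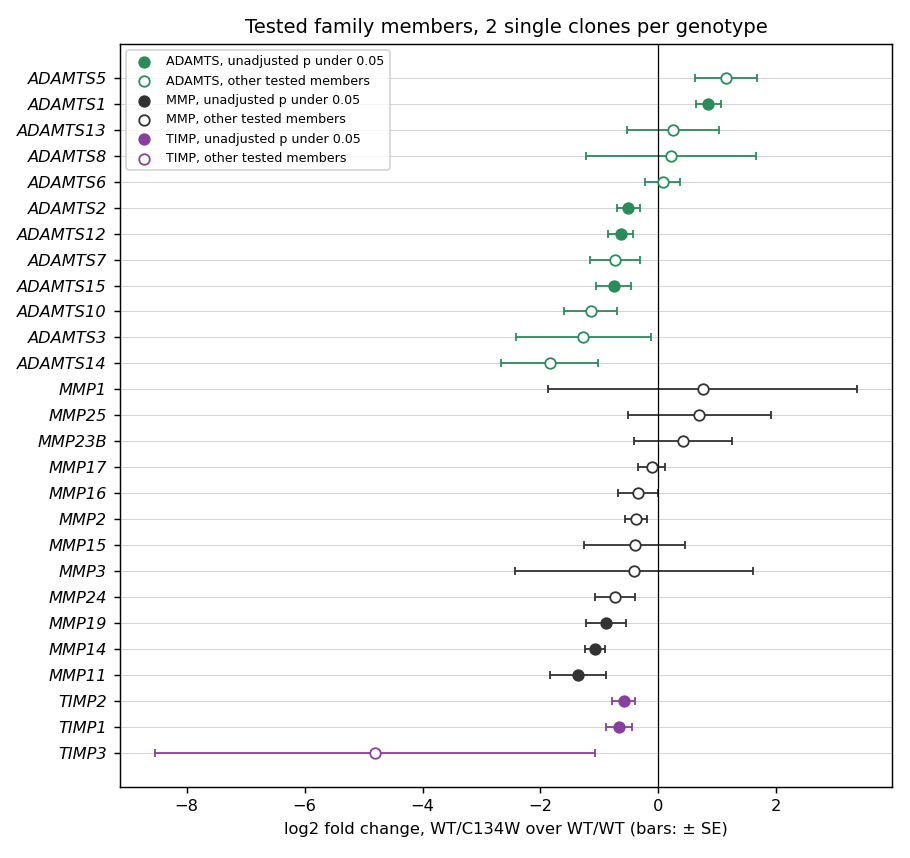
Log2 fold change (mutant over reverted clones) of the 27 tested members with SE bars derived from edgeR's F value, by family; filled points have an unadjusted p under 0.05. MMP14, MMP11, MMP19, ADAMTS2, ADAMTS12, ADAMTS15, TIMP1 and TIMP2 are filled left of 0, and ADAMTS1 is filled right of 0.

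Among membrane-type MMPs, MMP14 showed the widest separation between genotypes relative to its spread. MMP14 (MT1-MMP, ENSG00000157227, chr14:22836557-22849027, plus strand) cuts collagen at the cell surface and activates the MMP2 precursor. It had 632 and 649.5 CPM in 44a and 4.72, 608 CPM in 4.72-44a, 324 and 285 CPM in 3.11 and 44b, and 279.7 CPM in 3.11-44b. All 3 WT/WT libraries lay above all 3 WT/C134W libraries, and the clones of a genotype were close to each other. The log2 fold change was -1.07 ± 0.17 (SE, 2 clones per genotype), with an unadjusted p of 0.000872, the 24th smallest of 16416, and an adjusted p of 0.48 in edgeR's test. Over the other settings its adjusted p ran from 8.24e-08 (DESeq2) to 0.999 (without 3.11), and the value stayed between -1.17 and -0.80.

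The 5 remaining membrane-type genes were far lower in level. MMP17, anchored by a lipid tail, had 16.5, 13.8 and 12.7 CPM in the WT/WT libraries and 15.1, 12.9 and 10.2 CPM in the WT/C134W libraries, in the order clone, clone, joined library (44a, 4.72, 4.72-44a, then 3.11, 44b, 3.11-44b), which holds for the values below. Its genotypes overlapped, at -0.11 ± 0.23. MMP24 had 10.7, 10.6 and 8.40 CPM against 5.00, 7.73 and 6.64 CPM, a log2 fold change of -0.74 ± 0.33 that was -0.46 without 3.11. The 6 values did not overlap between genotypes. MMP24 lies inside MMP24OS on the opposite strand, which had 44.6, 57.3 and 46.5 CPM against 28.6, 28.8 and 30.6 CPM, and whether reads were shared between them was not tested. MMP16 had 10.2, 7.61 and 7.65 CPM against 6.04, 7.91 and 12.02 CPM, with the highest value in a WT/C134W library, at -0.35 ± 0.33. MMP15 had at most 3.77 CPM and MMP25 at most 2.32 CPM, and both overlapped, with log2 fold changes of -0.40 ± 0.86 and 0.70 ± 1.22.

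Gelatinases were represented by MMP2 alone, which digests denatured collagen and basement membrane collagen. MMP2 had 3239, 3461 and 3187 CPM against 2656, 2463 and 2473 CPM. Every WT/WT library exceeded every WT/C134W library, by a smaller margin than for MMP14. Its log2 fold change was -0.38 ± 0.19 (unadjusted p = 0.095 and adjusted p = 0.72 in edgeR's test).

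Of the stromelysin and matrilysin group, 2 of 5 members were tested. MMP11, stromelysin 3, had 19.0, 7.73 and 8.63 CPM against 5.34, 5.04 and 5.28 CPM. The reverted clone 44a stood apart at the top, while the 3 WT/C134W libraries were nearly equal. The log2 fold change was -1.36 ± 0.47 (unadjusted p = 0.0301, adjusted p = 0.647 in edgeR's test) and was -0.58 without 44a. MMP3, stromelysin 1, had at most 0.654 CPM, with a log2 fold change of -0.41 ± 2.02. The collagenase MMP1 was no higher than 0.457 CPM (0.75 ± 2.62). Among other MMPs, MMP19, a secreted MMP with broad matrix substrates, had 19.4, 17.7 and 18.5 CPM against 7.07, 12.9 and 12.3 CPM. Its WT/WT libraries were close together and all above the WT/C134W libraries, at -0.89 ± 0.33 (unadjusted p = 0.0385, adjusted p = 0.657 in edgeR's test), -0.52 without 3.11 and -1.39 without 44b. MMP23B had 0.564, 1.17 and 0.976 CPM against 1.06, 1.24 and 0.885 CPM, at 0.41 ± 0.83, and its genotypes overlapped.

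Of the 12 tested ADAMTS genes 7 had negative and 5 positive values. The 3 procollagen N-proteinases, which remove the N-terminal propeptides of procollagens, all had negative values. ADAMTS2, the most abundant ADAMTS gene, had 299.4, 342.7 and 311 CPM against 254, 194 and 199 CPM. Its genotypes did not overlap, at -0.51 ± 0.20 (unadjusted p = 0.041, adjusted p = 0.658 in edgeR's test) and at -0.34 without 44b. ADAMTS14 had 5.799, 1.32 and 2.59 CPM against 0.962, 1.02 and 1.82 CPM, so 44a was the highest, and its log2 fold change was -1.84 ± 0.82 and was -0.42 without 44a. ADAMTS3 had at most 1.22 CPM, at -1.27 ± 1.15.

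Proteoglycan-cleaving members included the 2 ADAMTS genes with the highest positive values. ADAMTS1 (ENSG00000154734, chr21:26835747-26845409, minus strand), which cuts versican and aggrecan, had 76.3, 101.2 and 95.6 CPM against 140.3, 178 and 173 CPM. All 3 WT/C134W libraries lay above all 3 WT/WT libraries. The log2 fold change was 0.85 ± 0.21 (unadjusted p = 0.00747, adjusted p = 0.593 in edgeR's test), and the adjusted p over other settings ran from 0.0042 (no low-count filter) to 0.999 (without 3.11). In TPM the difference was larger, from 21 and 41.4 TPM in 44a and 4.72 to 79.6 and 83.1 TPM in 3.11 and 44b. The effective length that RSEM used for ADAMTS1 differed with it, 5023 bases in 44a and 3264 in 4.72 against 2746 in 3.11 and 3183 in 44b. ADAMTS5, an aggrecanase that lies 72.5 kb from ADAMTS1 on chromosome 21, had 5.37, 2.96 and 3.26 CPM against 5.68, 12.7 and 13.9 CPM. Its lowest WT/C134W library was just above its highest WT/WT library, at 1.14 ± 0.53 (unadjusted p = 0.0777 in edgeR's test) and at 0.45 without 44b. ADAMTS15 had 14.6, 16.4 and 14.2 CPM against 11.0, 7.20 and 5.18 CPM, the opposite order. Its log2 fold change was -0.76 ± 0.30 (unadjusted p = 0.0461, adjusted p = 0.658 in edgeR's test) and was -0.49 without 44b. ADAMTS8, which lies 20.0 kb from ADAMTS15 on chromosome 11, had at most 1.66 CPM and overlapping genotypes (0.21 ± 1.44).

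Of the 5 other ADAMTS genes tested, 3 had negative values, a share near that of all genes (49.4%), and 1 had an unadjusted p under 0.05. ADAMTS12, a protease of cartilage oligomeric matrix protein, had 49.8, 61.3 and 58.8 CPM against 30.8, 40.1 and 43.2 CPM. The genotypes did not overlap, at -0.64 ± 0.21 (unadjusted p = 0.0219, adjusted p = 0.638 in edgeR's test). ADAMTS7, its close relative, had 96.2, 62.4 and 75.2 CPM against 30.2, 64.6 and 49.7 CPM, so 44b was above 4.72, at -0.74 ± 0.42 and at -0.29 without 3.11. ADAMTS10, linked to fibrillin microfibrils, had 79.3, 36.8 and 46.1 CPM against 19.6, 32.8 and 29.04 CPM. Its clones differed widely within each genotype without overlap between them. The log2 fold change was -1.15 ± 0.45 and was -0.49 without 44a. ADAMTS6, also tied to fibrillins, had 20.9, 17.5 and 20.0 CPM against 14.9, 25.2 and 24.9 CPM, at 0.07 ± 0.30. ADAMTS13, which cuts von Willebrand factor, had 2.03, 2.51 and 3.47 CPM against 1.01, 4.37 and 2.81 CPM, at 0.25 ± 0.78. The genotypes overlapped for both.

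**Figure D3:**
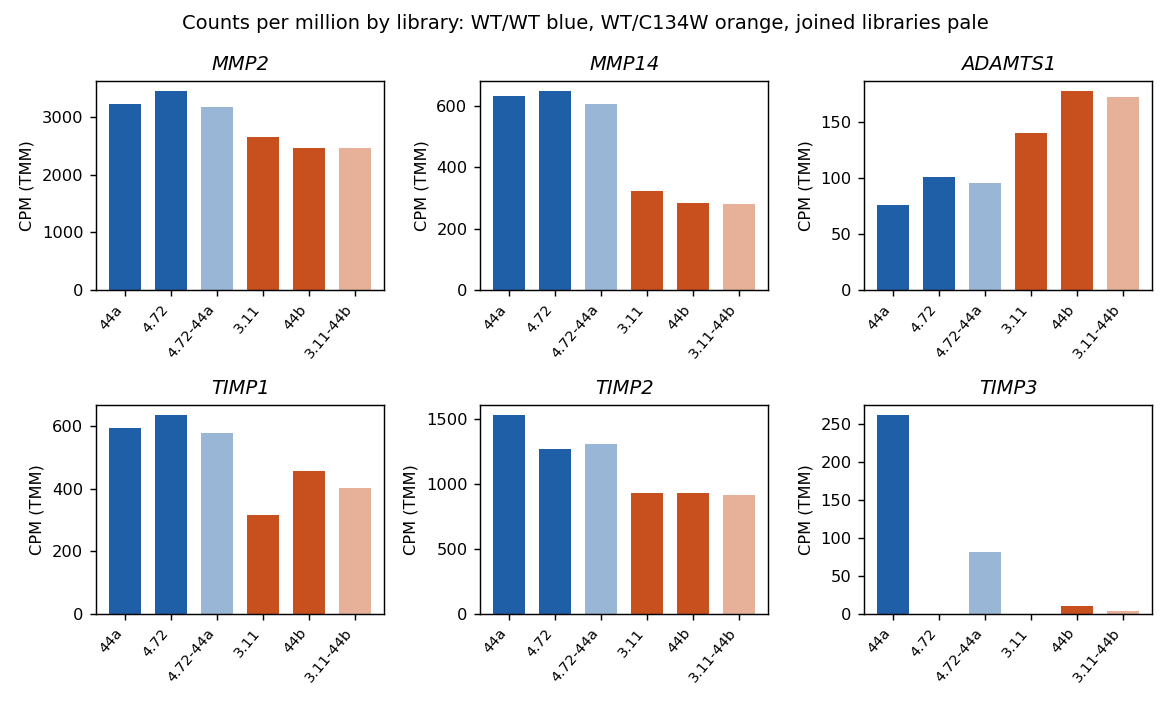
CPM of MMP2, MMP14, ADAMTS1, TIMP1, TIMP2 and TIMP3 in each library as bars from 0; blue is WT/WT, orange WT/C134W, and the joined libraries are pale. The genotypes are separated for the first 5 genes, and TIMP3 is high in 44a (262 CPM) and at 0 in 4.72 and 3.11.

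Both abundant inhibitors were at lower levels in the WT/C134W clones. TIMP1 (ENSG00000102265, chrX:47582313-47586789, plus strand) had 594 and 637 CPM in 44a and 4.72 and 578 CPM in 4.72-44a. It had 315 and 458 CPM in 3.11 and 44b and 401 CPM in 3.11-44b. The genotypes did not overlap, and 3.11 was the lowest. The log2 fold change was -0.67 ± 0.23 (unadjusted p = 0.0269, adjusted p = 0.647 in edgeR's test) and was -0.42 without 3.11. TIMP2 (ENSG00000035862, chr17:78852977-78925387, minus strand) had 1534, 1268 and 1310.4 CPM against 928, 933 and 911 CPM. The WT/C134W libraries were within a narrow range, all below the lowest WT/WT library. Its log2 fold change was -0.59 ± 0.19 (unadjusted p = 0.0243, adjusted p = 0.643 in edgeR's test), and TIMP2 was called when the joined libraries were added as replicates (adjusted p = 0.0351 in edgeR's test), a fit that takes them as separate samples. That fit called 511 of 16046 genes (3.18%), of which MMP14, ADAMTS1 and TIMP2 were members.

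TIMP3 differed between clones of the same genotype. TIMP3 (ENSG00000100234, chr22:32801701-32863043, plus strand) encodes the TIMP that binds to the matrix and also blocks several ADAMTS enzymes. Its expected counts were 11628 in 44a, 0 in 4.72 and 3141 in 4.72-44a, and 0 in 3.11, 425 in 44b and 150 in 3.11-44b. In CPM these were 262, 0, 80.7, 0, 9.39 and 3.90. Each genotype thus had 1 clone with transcripts and 1 clone at 0. Set against 3 counts per library, the level in 44a was at least 3519-fold higher than in 4.72, and that in 44b was at least 130.04-fold higher than in 3.11. The level in 44a was 28.0 times that in 44b. The joined libraries stood between, at 30.7% of 44a and 41.6% of 44b. The genotype difference, -4.80 ± 3.73 (adjusted p = 0.859 in edgeR's test), rests on 44a, and its sign turned without that clone. TIMP3 was called once 44a and 44b, and likewise 4.72 and 3.11, were entered as pairs (adjusted p = 0.0367 in edgeR's test). That fit called 5 genes (0.0305%), and its pairing was taken from the names alone. Because 4.72 and 3.11 both had 0 counts, the TIMP3 call rested on 44a against 44b, 1 library against 1.

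TIMP3 lies inside SYN3 on the opposite strand, and SYN3 had 0 CPM in all 6 libraries. TIMP1 lies likewise inside SYN1, which had at most 0.542 CPM, and TIMP4 inside SYN2 (at most 0.110 CPM). Other members overlap in part with transcribed genes of the opposite strand, ADAMTS7 with MORF4L1, ADAMTS13 with REXO4, MMP23B with CDK11B, MMP19 with TMEM198B, MMP25 with MMP25-AS1 and TIMP2 with AC022966.1, and their values are uncertain to that extent. On the same strand TIMP2 overlaps with CEP295NL, MMP2 with AC007336.3, ADAMTS6 with RPEP1 and ADAMTS12 with RNU6-923P. Whether reads were shared there was not tested. Of the 6 epithelial markers, KRT14 was the 1 tested, with 99.9, 0.522 and 30.7 CPM against 2.26, 48.7 and 32.6 CPM, so it was also high in 44a and 44b and low in 4.72 and 3.11. EPCAM, not tested, had the other order in WT/C134W, with 0.577 CPM in 3.11 and 0.0442 CPM in 44b. The summed TPM of the 6 markers ran from 2.29 to 118.8 in WT/WT and from 3.56 to 66.3 in WT/C134W. In 44a KRT14 alone had 118.7 TPM, and KRT20 was at 0 in every library. Among fibroblast markers and matrix substrates, DCN, LUM and BGN were likewise higher in 44a than in 4.72 and in 44b than in 3.11. PDGFRB, THY1 and FN1 had the reverse order in both genotypes. The part of any of these genes in the TIMP3 difference was not tested.

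The promoter of TIMP3 is shown because clones of 1 genotype ranged from 0 to 11628 counts, and those of MMP14 and TIMP1 because both genes were lower in the WT/C134W clones. Each is the 250 bases before the transcription start in RefSeq (GRCh38.p14), 5′ to 3′ on the gene's strand. Capitals mark matches on either strand to the GC box GGGCGG, the AP-1 site TGANTCA or the forkhead core TAAACA; overlapping matches run together.
TIMP3 (chr22:32801455-32801704, plus strand): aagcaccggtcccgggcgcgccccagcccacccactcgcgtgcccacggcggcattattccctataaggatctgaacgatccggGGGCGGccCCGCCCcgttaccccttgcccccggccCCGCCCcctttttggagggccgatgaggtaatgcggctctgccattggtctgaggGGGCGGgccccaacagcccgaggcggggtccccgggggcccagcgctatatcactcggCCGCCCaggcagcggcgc
MMP14 (chr14:22836335-22836584, plus strand): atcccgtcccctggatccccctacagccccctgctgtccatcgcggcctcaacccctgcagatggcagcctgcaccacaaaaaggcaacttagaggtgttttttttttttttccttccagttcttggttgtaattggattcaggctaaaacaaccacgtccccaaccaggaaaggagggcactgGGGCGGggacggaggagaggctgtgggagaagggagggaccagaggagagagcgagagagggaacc
TIMP1 (chrX:47582186-47582435, plus strand): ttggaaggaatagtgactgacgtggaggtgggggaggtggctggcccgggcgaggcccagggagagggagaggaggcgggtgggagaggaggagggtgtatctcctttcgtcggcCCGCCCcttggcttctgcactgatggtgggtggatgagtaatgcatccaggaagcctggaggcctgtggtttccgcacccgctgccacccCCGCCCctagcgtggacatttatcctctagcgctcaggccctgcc
The TIMP3 window held 5 GC box matches and 26 CG dinucleotides, more CG than 80.4% of 35116 promoter windows of this length. MMP14 held 1 GC box match and 7 CG dinucleotides, and TIMP1 held 2 and 12, beside a median of 11 CG. The 3 windows held no match to the AP-1 or forkhead letters given above. Near matches, such as tgagtaa in the TIMP1 window, were not counted, so sites with other letters may be present. Over all promoters, 42.6% held a GC box match, 6.57% an AP-1 match and 11.0% a forkhead match. Promoter windows were matched for 27 of the 46 members, 15 of them tested. Among these 15, 14 held a GC box match, 1 an AP-1 match (ADAMTS12) and 1 a forkhead match (ADAMTS13).

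Summed in TPM over each family, MMP and TIMP transcripts were lower in WT/C134W and ADAMTS transcripts were not separated. These sums were not tested. The MMP sum was 2177, 2172 and 2080.0 TPM in 44a, 4.72 and 4.72-44a and 1846, 1739 and 1660.0 TPM in 3.11, 44b and 3.11-44b. The TIMP sum was 1854, 1684 and 1663 TPM against 1124, 1372 and 1254 TPM. For both families the 6 libraries did not overlap between genotypes. The ADAMTS sum was 205, 196 and 208 TPM against 199.99, 224 and 246 TPM. When CPM was summed in place of TPM, every WT/C134W library had a lower ADAMTS sum than every WT/WT library. The log2 difference was 0.08 in TPM and -0.28 in CPM. ADAMTS1 took 10.3% and 21.1% of the ADAMTS sum in 44a and 4.72 and 39.8% and 37.1% in 3.11 and 44b. The ratio of ADAMTS1 to ADAMTS2 in TPM went from 0.267 and 0.477 to 1.11 and 1.43. Both the share and the ratio carry the difference in effective length of ADAMTS1 given above. In CPM, ADAMTS1 stayed below ADAMTS2 in each clone, with 76.3 against 299 in 44a and 101 against 343 in 4.72. It had 140 against 254 CPM in 3.11 and 178 against 194 CPM in 44b. TIMP2 per MMP14 was 2.31 in 44a, 1.66 in 4.72, 2.18 in 3.11 and 3.03 in 44b, so the genotypes overlapped. Summed TIMP per summed MMP overlapped as well, at 0.852 in 44a, 0.775 in 4.72, 0.609 in 3.11 and 0.789 in 44b.

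**Figure D4:**
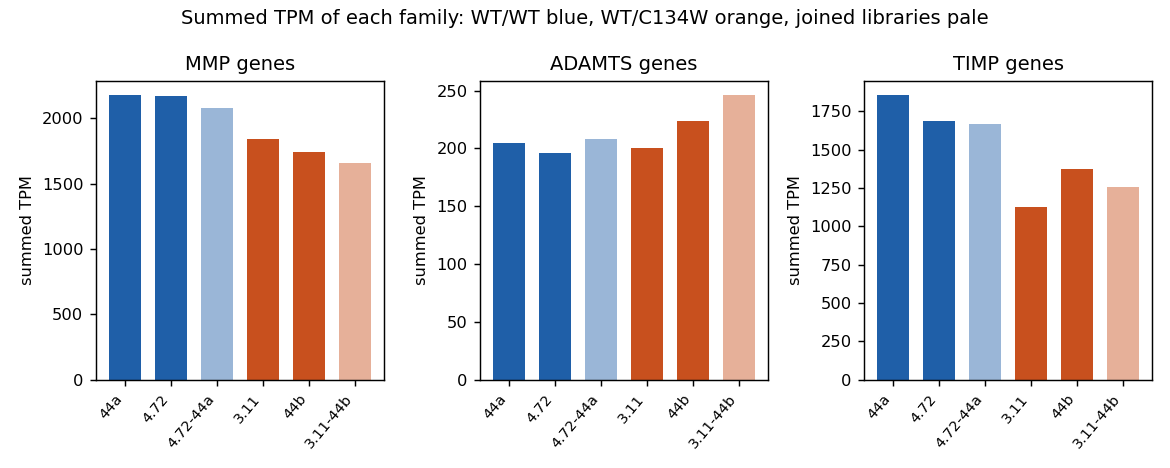
Summed TPM of the 23 MMP, 19 ADAMTS and 4 TIMP genes in each library, as bars from 0; blue is WT/WT, orange WT/C134W, and the joined libraries are pale. The MMP and TIMP sums of the WT/C134W libraries are all below those of the WT/WT libraries, and the ADAMTS sums overlap.

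The clones of 1 genotype often differed as much as the genotypes did. For 14 of the 27 tested members the larger log2 ratio between clones of a genotype exceeded the log2 fold change in size, which held for 73.5% of all genes. The median size of the ratio of 44a over 4.72 was 0.41 in members and 0.31 in all genes, and for 44b over 3.11 it was 0.54 and 0.36. More than 2-fold apart were 8 members between 44a and 4.72 and 8 between 44b and 3.11. MMP1 and MMP3, of few counts, were in both sets, and the same count was not made over all genes. The 2 genotypes did not overlap in the single clones for 15 of the 27 members, 13 lower and 2 higher in WT/C134W (ADAMTS1 and ADAMTS5), against 39.5% of all genes (19.8% lower and 19.6% higher). With the joined libraries added, 13 did not overlap, 11 lower and 2 higher, against 25.8% of all genes (14.0% lower and 11.8% higher). The difference between the joined libraries had the sign of the single-clone difference for 20 of 27 members. The joined library lay between its clones for 18 of 27 members in WT/WT and 17 of 27 in WT/C134W. For sign and position of the joined libraries, shares over all genes were not computed.

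**Figure D5:**
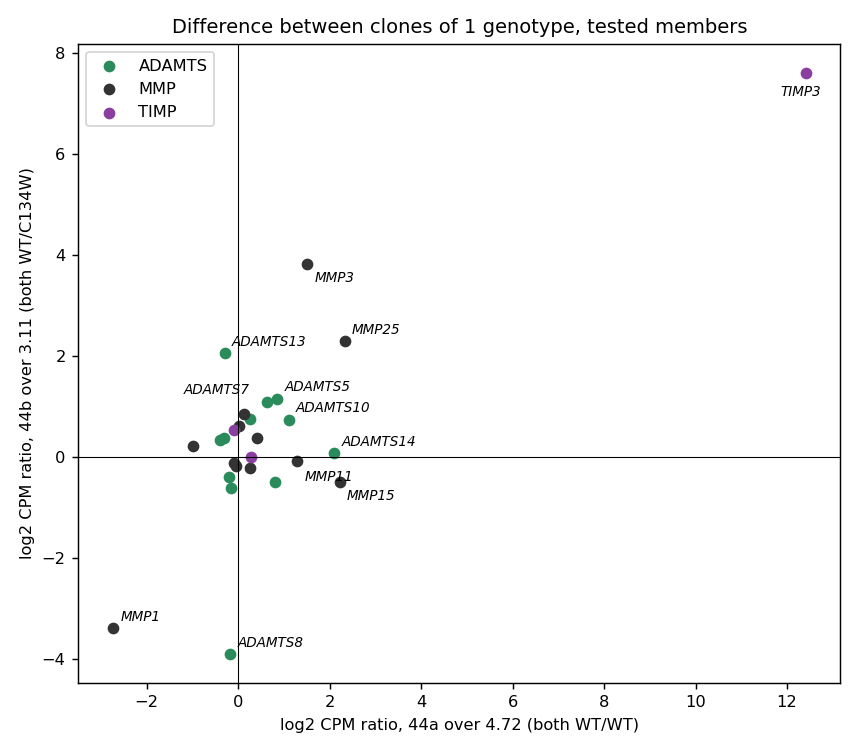
Log2 CPM ratio of 44a over 4.72 (x axis) and of 44b over 3.11 (y axis) for the 27 tested members, with a prior count of 2; members more than 2-fold apart on either axis are named. TIMP3 lies far to the upper right (12.4 and 7.61), and 18 of 27 members have the same sign on both axes. The share of all genes with the same sign was not computed.

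Other genes of the pathway were taken from lists of partners, relatives, regulators and substrates. None of the tested entries was called in edgeR's test, and those at an unadjusted p under 0.05 are counted below. Activators, inhibitors and partners had 11 of 14 tested members with negative values (median -0.42), 3 of them and 1 positive member at an unadjusted p under 0.05. FURIN, a convertase that removes the propeptide of MMP14, had 178, 184 and 172 CPM against 107, 128 and 116 CPM, at -0.62 ± 0.16 (unadjusted p = 0.00929). The WT/WT libraries were all above the others. A2M, a protease inhibitor of the extracellular fluid, had 5.96, 4.92 and 4.73 CPM against 28.4, 14.7 and 17.3 CPM, at 1.99 ± 0.38 (unadjusted p = 0.00222, adjusted p = 0.512 in edgeR's test), and its genotypes did not overlap. PCOLCE, an enhancer of procollagen C-proteinase, had a log2 fold change of -0.98 ± 0.25. RECK, a membrane inhibitor of MMPs, had 52.3, 72.1 and 71.2 CPM against 48.4, 37.1 and 40.5 CPM.

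ADAM and BMP1/tolloid proteases had 6 negative and 5 positive values among 11 tested (median -0.02). ADAM23, at -0.95 ± 0.18 (unadjusted p = 0.0019), and BMP1, the procollagen C-proteinase, at -1.13 ± 0.30 (unadjusted p = 0.0113), had the smallest p. ADAMTS-like genes had 4 of 5 negative values (median -0.17), with ADAMTSL5 at -1.13 ± 0.24 and THSD4 at 0.21 ± 0.26. The AP-1, ETS and RUNX factors, known regulators of MMP promoters, were balanced, with 7 negative and 6 positive values among 13 (median -0.02). JUNB, an AP-1 subunit, was at -1.89 ± 0.30 (unadjusted p = 0.000906 in edgeR's test), JUND, another, at -0.52 ± 0.23 and JUN at 0.37 ± 0.17. Substrates had 14 of 16 negative values (median -0.999), 7 with an unadjusted p under 0.05. COL3A1, at -1.36 ± 0.24, and COL1A1, at -1.16 ± 0.24, had the smallest p, and VCAN, the versican that ADAMTS1 cuts, had 1295 and 1176 CPM in 44a and 4.72 and 863 and 733 CPM in 3.11 and 44b.

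Fibroblast markers, which include COL1A1 and COL3A1, differed in the same direction as most MMP and TIMP genes. Of 8 tested, 7 had negative values (median -1.06), and PDGFRA was at 0.41 ± 0.34. The summed TPM of the 8 ran from 8393 to 10282 in WT/WT and from 4775 to 5607 in WT/C134W. COL1A1 made up most of that sum, with 8632 and 7142 TPM in 44a and 4.72 and 4493 and 3909 TPM in 3.11 and 44b. Granulosa cell markers had 7 of 9 tested genes with negative values (median -0.78), INHBA (-0.93 ± 0.31) and INHBB (-1.14 ± 0.41) at an unadjusted p under 0.05, and FOXL2 and AMH were the 2 with positive values. The summed TPM of that list ran from 224 to 233 in WT/WT and from 112 to 219 in WT/C134W. The part of either list in the family differences was not tested. In bulk RNA, fewer cells of a kind and less RNA per cell cannot be told apart.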

How the data were processed

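The expected counts were deposited by the authors in RSEM gene tables, 1 per library, with TPM and FPKM beside them, per the file headers; FPKM, as deposited, was not used. Per the submitters' processing notes the tools were RSEM 1.3.1, DESeq2 1.26.0, STAR 2.7.6a, R 3.6.3 and Picard 2.8.1, with no roles stated. The notes give GRCm38 as build, a mouse genome, but the IDs are human Ensembl genes. No human build, annotation or strand setting was named, so genes that overlap on opposite strands are uncertain, and MMP23B may share reads with its copy MMP23A. GENCODE 29 named 58216 of 58336 IDs.

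Counts were rounded, filtered with filterByExpr, scaled by TMM and tested over all genes with edgeR 4.0.16 (glmQLFit, robust) in R 4.3.3, threshold 0.05. CPM values use TMM over the 6 libraries, and SE was taken as the size of the fold change (log2) over the root of F. The script was tested on simulated data. Alternatives used DESeq2 1.42.0, limma 3.58.1, other scalings, filters and libraries, and log2(TPM + 1) or log2(TPM + 0.1). Members and lists were chosen with earlier results of these data known. Named were all tested members, with values per library at a mean of at least 1 TPM or an unadjusted p under 0.05, and of each pathway list the 2 smallest p; CPM of further genes was added after values were seen.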

Additional observations from a re-analysis of the deposited data

How the results depend on the processing

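Each genotype has 2 clones, and members of a few counts have wide errors. Genes called were 511 with all 6 libraries, 283 with DESeq2, 664 without a low-count filter, 5 with the replicate block (44a beside 44b, 4.72 beside 3.11), and 2 on log2(TPM + 0.1), in place of 0; members called were 3, 2, 6, 1 and 0. The 6 were MMP11, MMP14, ADAMTS1, ADAMTS7, ADAMTS10 and TIMP3, and edgeR's prior degrees of freedom were infinite there. Members with an unadjusted p under 0.05 numbered 14 with all 6 libraries, 14 without the filter, 3 with library totals alone, 3 on each TPM scale and 2 (without 44a) to 7 leaving out 1 clone, in place of 9. The share of all genes at that unadjusted level was computed for the main comparison alone (7.57% in edgeR's test), so these counts have no background beside them. With at least 10 CPM in 2 libraries 14 members were tested and 12 were lower, in place of 19 of 27. The members' median of -0.51 was -0.29 with library totals alone, where the median of all genes was 0.23, and -0.14 on log2(TPM + 1) without a filter. Leaving out 1 clone gave -0.85 (without 44b) to -0.41. Summed CPM in place of TPM gave log2 differences of -0.48 for MMP, -0.28 for ADAMTS and -0.69 for TIMP genes, in place of -0.28, 0.08 and -0.51.

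Of 27 members, 16 kept their sign in all 15 settings that tested them. Leaving out 1 clone turned the sign of MMP1 (-0.27 to 6.33), MMP3 (-7.18 to 0.68), MMP15 (-1.14 to 1.15), MMP17 (-0.25 to 0.016), MMP23B (-0.030 to 1.02), MMP25 (-0.96 to 2.45), ADAMTS6 (-0.36 to 0.40), ADAMTS8 (-3.44 to 1.15), ADAMTS13 (-1.16 to 0.95) and TIMP3 (-15.43 to 10.64, fitted against clones at 0 and no measure of size). MMP16 was 0.035 with all 6 libraries, 0.25 on log2(TPM + 1) with or without the filter and 0.34 on log2(TPM + 0.1). MMP17 was 0.11 with library totals alone, 0.23 on log2(TPM + 1) and 0.25 on log2(TPM + 0.1). ADAMTS13 was -0.049 with limma voom, -0.081 with the block, -0.033 on log2(TPM + 1) and -0.16 on log2(TPM + 0.1), and ADAMTS8 was -1.16 with limma voom and -0.96 with the block. The causes were not tested. The labels do not pair the clones, and the block is taken from their names.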

Other observations

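MMP21 and ADAMTS4 had counts in a joined library and none in the clones whose names it joins. MMP21 had 0 expected counts in all 4 single clones, 6 in 4.72-44a and 10 in 3.11-44b. ADAMTS4 had 12 in 3.11-44b, 0 in 3.11 and 44b and 1 in 4.72. MMP12 had 19 in 3.11-44b, 9 in 44b and 0 in the other 4 libraries.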
